A study of Mus musculus with 4 samples.

Results

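Ly86, Cd180, Ly96, Tlr4 and Cd14 encode the lipopolysaccharide receptor complex and its close relative, and their transcripts were measured in granulocyte/monocyte progenitors (GMP) with and without Icsbp. These 5 genes, of 18193 with a probe set of their own on the arrays, were chosen by name, and every probe set that carries 1 of these symbols was taken, low ones included. This gave 8 probe sets, 6 of them on both array types and 2 on the larger one only. Ly86 was selected from these same data because it fell deepest, so the values of all 5 genes in this contrast are a description and carry no test.

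GMP are bone marrow progenitors of granulocytes and monocytes, and they were purified by flow cytometry from mice 10 to 16 weeks old. Icsbp is an older name of Irf8, an interferon regulatory factor that controls transcription in myeloid progenitors. The 4 arrays carried 2 wild type preparations, each from at least 10 pooled mice, and 2 Icsbp-deficient preparations, each from at least 8. One preparation of each genotype was on the 430A array and 1 on the larger MOE430_2 array. The wild type 430A array is labelled with a mixed C57/Bl6 and S129Ola background and no genotype, and the series' design text placed it as wild type. For the other 3 arrays the background is not given, nor is the deleted part of Icsbp, in the sources used here.

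As background, Toll-like receptor 4 senses lipopolysaccharide, the outer membrane lipid of Gram-negative bacteria. The lipid binds a small secreted protein, the product of Ly96, that sits on the receptor's ectodomain, and Cd14 hands the lipid over. Cd180 is a Toll-like receptor relative that lacks the intracellular signalling domain, and it pairs with the product of Ly86, a homologue of Ly96, much as Tlr4 pairs with Ly96. Cd180 with Ly86 is known on B cells, macrophages and dendritic cells, where it restrains Tlr4 signalling in myeloid cells and promotes activation in B cells.

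Values are signal intensities scaled to a common trimmed mean, and ratios divide Icsbp-deficient by wild type GMP on the log2(signal + 50) scale, after normalization within an array type. The offset of 50 pulls ratios of low signals towards 0. For the 5 genes, ± is the SD of n = 2 ratios, 1 per array type. The array types were normalized separately, so levels are compared within a type only. The targeted gene was still read on the Icsbp-deficient arrays. Its probe set 1416714_at had scaled signals of 3059 (wild type) and 2776 (Icsbp-deficient) on 430A and 4798 and 2725 on MOE430_2, and 1448452_at had 3074 and 3234, and 1847 and 1892. These probe sets cannot check the labels while the deleted part is unknown. The GMP genes Mpo and Elane, for the granule proteins myeloperoxidase and neutrophil elastase, had scaled signals between 13745 and 32707 on the 4 arrays, and Kit, used in the sort of such progenitors, lay between 2148 and 3242. Of the other genes of the sort, Cd34 and Fcgr3 differed by genotype in the fit described further on (limma, array type as a block). Cd34, a stem and progenitor antigen, read 2625 and 819 on 430A and 3032 and 811 on MOE430_2 (3.32-fold lower, adjusted p = 0.000134). Fcgr3, an Fc receptor of the sort, read 2432 and 4899, and 2994 and 6337 (2.01-fold higher, adjusted p = 0.000776). Fcgr2b, the other Fc receptor listed, was at a log2 ratio of -0.05 and did not pass (limma adjusted p = 0.861).

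Ly86 transcript was high in wild type GMP and near the bottom of the signal range in Icsbp-deficient GMP. Its single probe set, 1422903_at, read 1516.6 (wild type) and 15.6 (Icsbp-deficient) on the 430A arrays. On the MOE430_2 arrays it read 1878.3 and 9.5. Both wild type arrays were high and both Icsbp-deficient arrays low, which follows from how Ly86 was chosen. In wild type GMP the probe set lay above 89.5% and 91.4% of all shared probe sets of the 430A and MOE430_2 arrays, and in Icsbp-deficient GMP above 13.2% and 13.7%.

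The log2 ratio of Ly86 was -4.57 on 430A and -5.01 on MOE430_2, a mean of -4.79 ± 0.32 (SD, n = 2), or 27.7-fold lower. This fold depends on the offset, since the Icsbp-deficient signals lay below it. With an offset of 16 the mean was -5.89, or 59.3-fold, and with a floor of 50 in place of an offset it was -5.08, or 33.7-fold. The plain quotient of the scaled signals was 97.2 on 430A and 198 on MOE430_2, and both rest on a denominator in the lowest part of the range. Ly86 passed the filter on low signals through its wild type arrays. Among genes, each by its brightest tested probe set, Prg2, the eosinophil major basic protein, came next in depth at a mean log2 ratio of -2.94. The mast cell protease Cpa3 followed at -2.81. A lower mean ratio than that of Prg2 was found for 4 tested probe sets, Ly86 among them. Of the tested probe sets 0 had a lower ratio than Ly86 on 430A and 3 did on MOE430_2. None of those 3 was the brightest tested probe set of a single named gene. In a bulk preparation, fewer Ly86-positive cells and less Ly86 RNA per cell cannot be told apart.

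**Figure D1:**
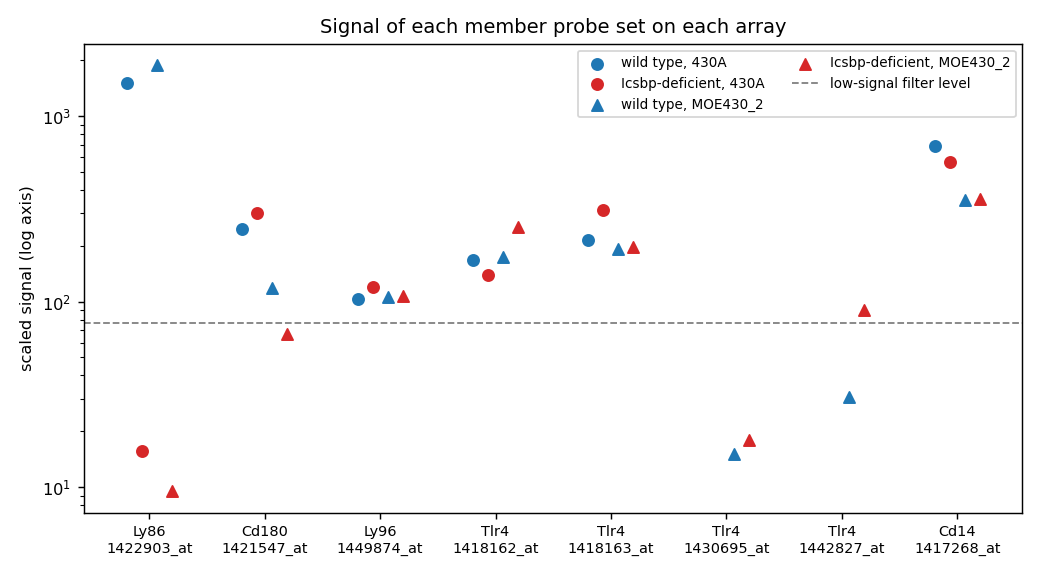
Scaled signal (log axis) of the 8 probe sets on each array, circles for 430A and triangles for MOE430_2, blue for wild type and red for Icsbp-deficient GMP; the dashed line is the low-signal filter level of 76.8. Ly86 separates by genotype, from 1516.6 and 1878.3 down to 15.6 and 9.5, and the other probe sets on both array types lie within a narrower band, with Cd180 falling to 66.8 on 1 array.

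Promoter windows from RefSeq, assembly GRCm38.p6, were present for 2 of the 5 genes, Ly86 and Cd180, and are shown so that the start regions of these 2 partner genes can be compared. Factors of this family are known to bind GAAA-containing elements, alone or next to a site for an ETS factor such as PU.1. Windows cover 250 bases before and 50 after the start site, and both strands were searched. Below, the Ly86 stretch ends 9 bases past the start site and its capitals mark the half-sites GAA, GAAA and GAA, each 2 bases apart, with the bases between them. The Cd180 stretch ends at the base before its first annotated start site.
Ly86, chr13:37345154-37345353, plus strand: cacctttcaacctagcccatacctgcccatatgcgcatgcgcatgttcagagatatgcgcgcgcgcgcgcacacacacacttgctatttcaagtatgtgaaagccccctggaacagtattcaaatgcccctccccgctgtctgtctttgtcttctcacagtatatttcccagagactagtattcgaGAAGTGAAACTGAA
Cd180, chr13:102693347-102693546, plus strand: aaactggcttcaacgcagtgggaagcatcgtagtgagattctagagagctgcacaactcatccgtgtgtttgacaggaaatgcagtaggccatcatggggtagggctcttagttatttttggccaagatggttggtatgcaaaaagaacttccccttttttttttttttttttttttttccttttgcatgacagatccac

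The ETS-IRF composite form (GGAA and GAAA 2 bases apart), the interferon response form (GAAA and GAAA 2 bases apart) and the ETS form GAGGAAGT had no match in the windows of either gene, which says only that these letters are not there. They occurred in 2.72%, 3.44% and 3.2% of all 32851 promoter windows. The form of 3 half-sites marked in capitals was composed after the Ly86 window had been read, so its match there is a description. It joins GAANNGAAA and GAAANNGAA, which overlap in their GAAA, and it begins 5 bases before the Ly86 start site. It occurred in 0.347% of all windows, against 7.52% for GAANNGAAA and 8.56% for GAAANNGAA alone. Cd180 has 2 windows, 11 bases apart, and both hold GAANNGAAA on the minus strand, past the start site.

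Cd180, the receptor that Ly86 accompanies, was not lower on both array types. Its probe set, 1421547_at, read 245.5 (wild type) and 301.9 (Icsbp-deficient) on 430A, and 118.7 and 66.8 on MOE430_2. The Icsbp-deficient array was the higher on 430A and the lower on MOE430_2. The log2 ratios were 0.24 and -0.48, a mean of -0.12 ± 0.51 (SD, n = 2), so the array types differed in sign. The lowest of these signals, 66.8, lay under the filter level of 76.8. On this scale the log2 ratio of Ly86 minus that of Cd180 was -4.81 on 430A and -4.53 on MOE430_2, a size that moves with the offset, as the Ly86 ratio does.

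Ly96, the lipid-binding partner of Tlr4 and the homologue of Ly86, read 103.2 and 120 on 430A and 105.3 and 107.5 on MOE430_2 for wild type and Icsbp-deficient GMP. All 4 signals were low and lay within a narrow range, a little above the filter level. Its log2 ratios were 0.15 and 0.09, a mean of 0.12 ± 0.04 (SD, n = 2).

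Tlr4, the signalling receptor, was read by 2 probe sets on both array types. For 1418162_at the wild type and Icsbp-deficient signals were 167.7 and 138.5 on 430A and 174.8 and 253.5 on MOE430_2, with log2 ratios of -0.22 and 0.48. For 1418163_at they were 214 and 312.3, and 193.2 and 196.1, with ratios of 0.44 and 0.07. The means were 0.13 ± 0.49 and 0.25 ± 0.27 (SD, n = 2). The first probe set changed sign between array types, and each probe set had its larger ratio on a different type.

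A further pair of Tlr4 probe sets is on the MOE430_2 array alone, so each gives 1 ratio with no replicate. Probe set 1442827_at read 30.5 (wild type) and 90.5 (Icsbp-deficient), a log2 ratio of 0.82, and 1430695_at read 15 and 18, a ratio of 0.06. Among the 4 Tlr4 probe sets the ratio on MOE430_2 therefore ran from 0.06 to 0.82, and the highest came from a wild type signal under the offset.

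Cd14, the co-receptor that delivers lipopolysaccharide to Tlr4, had scaled signals of 692.9 and 563.3 on 430A and 354.7 and 358.7 on MOE430_2. Its log2 ratios were -0.29 and 0.05, a mean of -0.12 ± 0.24 (SD, n = 2), and again the array types differed in sign. Apart from Ly86, chosen for its fall, the probe sets on both array types had mean log2 ratios from -0.12 to 0.25. The median of all genes tested was -0.01, and their share in this range was not counted. Ratios of opposite sign were averaged for Cd14, for Cd180 (0.24 and -0.48) and for a Tlr4 probe set (-0.22 and 0.48). Ly96 and the other shared Tlr4 probe set kept their sign.

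**Figure D2:**
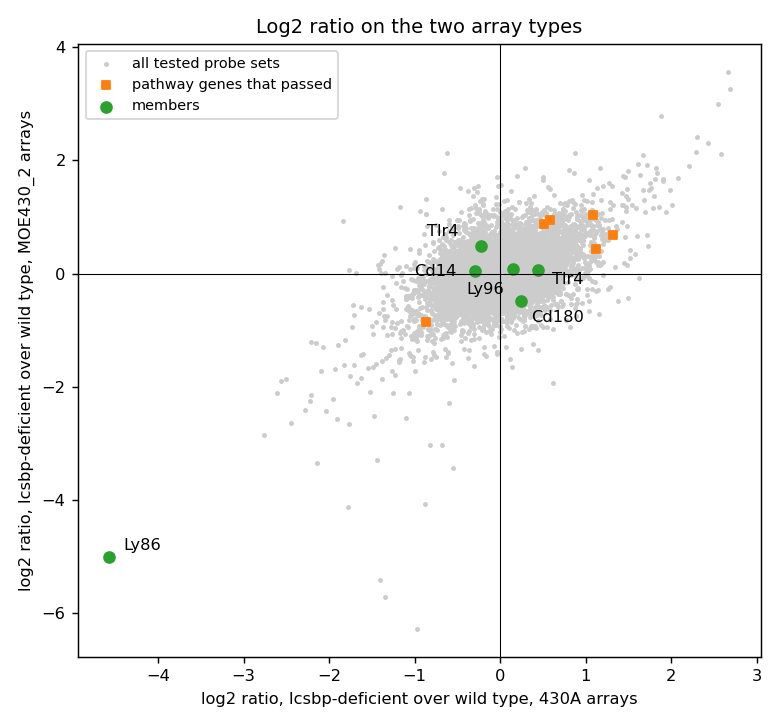
Log2 ratio of Icsbp-deficient over wild type on 430A (x axis) against MOE430_2 (y axis) for all 13576 tested probe sets (grey), the 6 shared probe sets of the 5 genes (green) and the 6 pathway genes that passed the test (orange squares). Ly86 lies at -4.57 and -5.01, and the other 5 green points lie within the grey cloud around 0.

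Likeness to Ly86 was measured as the Euclidean distance over the 4 arrays between log2 signals, each centred on its own mean, among 7820 genes with a tested probe set. The 5 nearest genes were Cpa3 at a distance of 2.05, Prg2 at 2.07, Klf4, a transcription factor of monocyte differentiation, at 2.09, Gm6958 at 2.32 and the erythroid carbonic anhydrase Car1 at 2.52. All 5 were lower in Icsbp-deficient GMP on both array types, with a smaller fall than Ly86 on each. The closest single ratio was that of Prg2 on MOE430_2, -4.12 against -5.01 for Ly86, while Prg2 was at -1.77 on 430A. Klf4 had log2 ratios of -2.14 and -3.34. The distance grows with the size of a ratio, so that it is large for Ly86 follows from how Ly86 was chosen.

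The genes nearest to Cd180 were Klf17 at 0.0871, Vhl at 0.12, Habp2 at 0.124, Tmem134 at 0.134 and Krt32 at 0.139. Small distances go with the small ratios of these genes. These genes shared with Cd180 a higher value on the 430A arrays than on the MOE430_2 arrays, a comparison across separately normalized types. Their log2 ratios by genotype ran from 0.09 to 0.24 on 430A and from -0.43 to -0.32 on MOE430_2. With 4 arrays such distances are a description of these arrays.

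**Figure D3:**
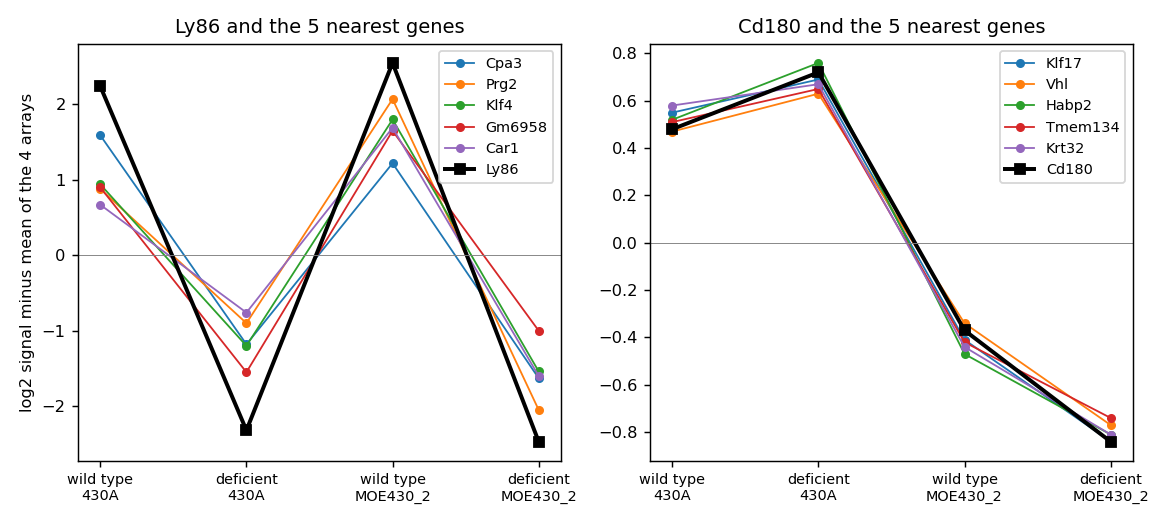
Log2 signal minus the mean of the 4 arrays (y axis) on each array (x axis) for Ly86 and its 5 nearest genes (left) and Cd180 and its 5 nearest genes (right); black squares are Ly86 and Cd180, and lines join the values of a gene. Ly86 goes from 2.24 and 2.55 in wild type to -2.32 and -2.47 in Icsbp-deficient GMP, while Cd180 differs mainly between the array types.

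The other genes of the Tlr4 and Cd180 pathways were tested in a fit across all probe sets (limma, array type as a block, Benjamini-Hochberg adjusted p under 0.05), and ± here is the moderated standard error of the mean of 2 ratios. Of 71 listed genes, 54 had a probe set of their own on both array types, and 40 passed the filter on low signals. Of these 40, 5 rose, 1 fell and 34 did not pass, with a median log2 ratio of 0.07. Over all 7820 genes tested, 255 rose (3.26%) and 183 fell (2.34%), 5.6% in all, with a median of -0.01. Over probe sets 5.13% were called. These pathway calls were made with array type as a block, and without the block limma called 0 of the 40, with 6 at an unadjusted p under 0.05. With the deposited values unscaled, where the median of all genes was -0.67, it called 0 of 38, with 0 at an unadjusted p under 0.05.

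The integrin chains that form complement receptor 3, a surface receptor that also takes part in lipopolysaccharide uptake, rose together. Itgb2, the beta chain, read 703 and 1539 on 430A and 978 and 2046 on MOE430_2, a log2 ratio of 1.06 ± 0.13 or 2.08-fold higher (limma adjusted p = 0.00202). Itgam, the alpha chain, read 196 and 320, and 168 and 356, a ratio of 0.76 ± 0.18 (adjusted p = 0.04). Lbp, the lipopolysaccharide-binding protein, was at -0.09 on 430A and 0.74 on MOE430_2 and did not pass (adjusted p = 0.379), and the scavenger receptor Cd36 was under the filter. Both integrin chains are also on mature neutrophils. The Itgam call ended with an offset of 16, without the filter and without the intensity trend, while the Itgb2 call held in those settings.

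Inside the cell, 2 of 13 tested kinases and ubiquitin ligases rose and 0 fell. Ikbke, a kinase that activates interferon regulatory factors, read 578 and 1324 on 430A and 669 and 905 on MOE430_2, a log2 ratio of 0.78 ± 0.18 (adjusted p = 0.0357). Peli2, a ubiquitin ligase that acts with the IRAK kinases, rose from 25.7 to 138 and from 59.8 to 122, a ratio of 1.01 ± 0.25 (adjusted p = 0.0476) from wild type signals near or under the offset. The other 11 had ratios from -0.14 to 0.25 and did not pass. Among them were Irak1, Traf6, Map3k7, Tab1, Tab2, Ikbkb and Ikbkg, on the route from the receptor to NF-kappaB. With an offset of 16, without the filter and without the intensity trend, neither the Ikbke nor the Peli2 call held.

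Of 4 transcription factors, Irf5, which acts downstream of Myd88, was the 1 that fell. It read 252 (wild type) and 116 (Icsbp-deficient) on 430A and 225 and 95.5 on MOE430_2, a log2 ratio of -0.86 ± 0.19 (adjusted p = 0.0294). A second Irf5 probe set, 1449678_at, was at -0.18 and 0.1 and did not pass (adjusted p = 0.949), so the probe sets of this gene disagree. Rela, the NF-kappaB subunit, was at 0.15 and Irf3 at 0.07, and neither passed. The Irf5 call ended without the filter, and under the 60th percentile filter the probe set was not tested.

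Among 5 tested inhibitors, Nfkbia, which encodes the inhibitor that holds NF-kappaB in the cytoplasm and is itself an NF-kappaB target, rose. Its signal went from 2586 to 3704 on 430A and from 1982 to 3705 on MOE430_2, a log2 ratio of 0.69 ± 0.13 (adjusted p = 0.0137). Of its 4 probe sets 3 passed, and 1420089_at, at 0.29, did not (adjusted p = 0.467). The Nfkbia call ended without the filter and without the intensity trend, and for the deposited values unscaled its ratio was -0.1, above the median of all genes there. Tollip at 0.24, Sigirr at -0.17, Inpp5d at 0.01 and Trim30a at -0.37 did not pass.

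No call was made among the adaptors, the folding and traffic genes, the Cd180 signalling genes or the response genes that were tested (0 of 3, 0 of 5, 0 of 4 and 0 of 3 by limma, against 5.6% of all genes). At an unadjusted p under 0.05 the counts were 0, 0, 1 and 0, the 1 being Vav1, a signalling protein behind Cd180, at 0.45 ± 0.15 (adjusted p = 0.124). Myd88, the main adaptor, was at 0.23 ± 0.14 (adjusted p = 0.442) and Tirap, which bridges it to Tlr4, at -0.03 ± 0.16. Hsp90b1, the chaperone that folds Toll-like receptors, was at -0.16 ± 0.1 and the traffic protein Tmed7 at 0.11 ± 0.12. Of the enzymes that act behind Cd180 in B cells, Plcg2 was at 0.26 ± 0.12 (adjusted p = 0.29) and the kinase Btk at 0.05 ± 0.13. Among response genes of lipopolysaccharide, Ccl4 was at 0.15 ± 0.2, Il1rn at 0.17 ± 0.23 and Il1b at -0.01 ± 0.22. The remaining 11 of 14, Tnf and Il6 among them, lay under the filter.

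A further 7 pathway genes had their own probe set on MOE430_2 alone and gave 1 ratio each, with no test. The adaptor Ticam1 was at 0.55, the kinase Irak2 at 0.45 and the deubiquitinase Cyld at 0.42, while the inhibitor Irak3, at 733 and 779, was at 0.08. Sarm1, Rnf216 and Cnpy4 were at -0.25, -0.14 and -0.04. The remaining 10 of the 71 genes had no probe set of their own name.

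**Figure D4:**
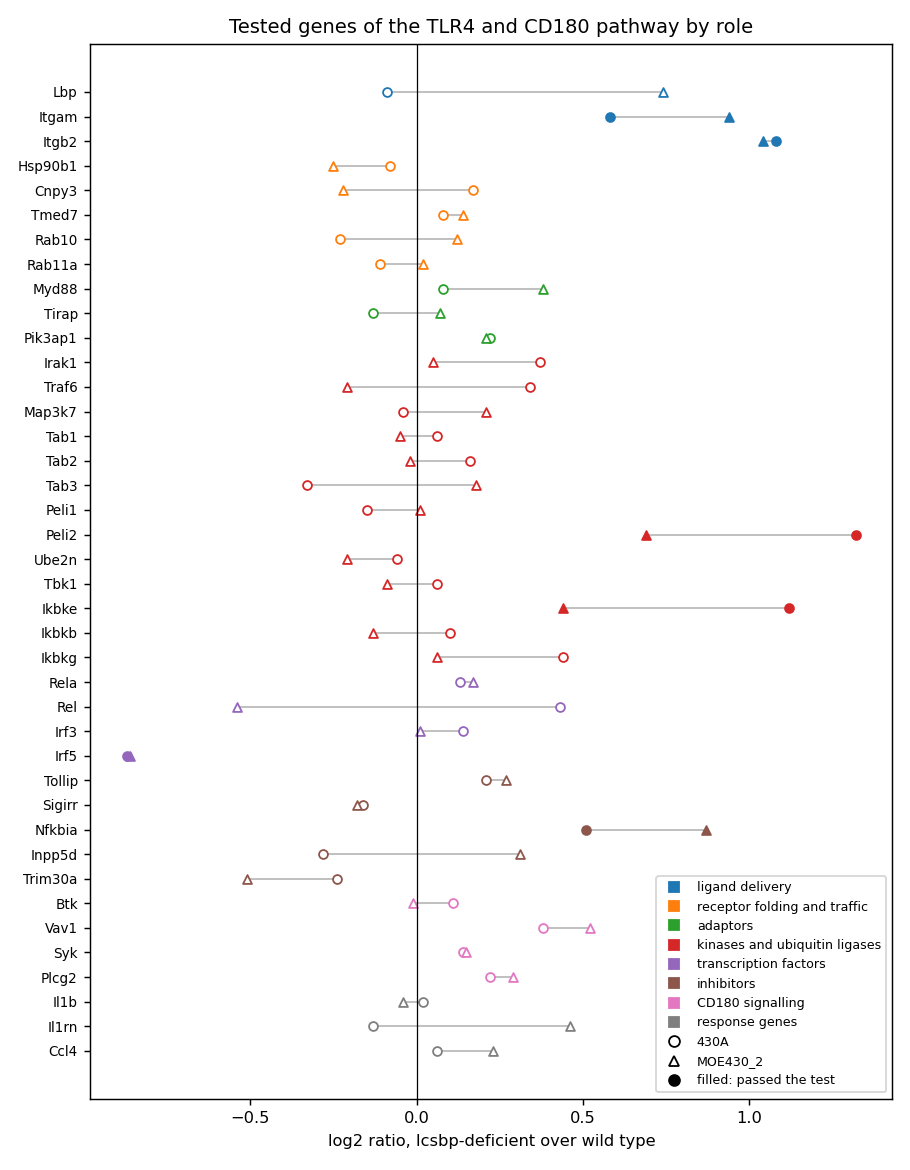
Log2 ratio of Icsbp-deficient over wild type (x axis) of the 40 tested pathway genes, coloured by role; circles are 430A, triangles MOE430_2, and filled symbols passed the test. Irf5 lies on the low side at -0.87 and -0.86, Itgb2, Itgam, Ikbke, Peli2 and Nfkbia on the high side on both array types, and most other genes near 0.

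Markers of cells in which Ly86 and Cd180 are known were checked on the same arrays, and their counts stand beside 3.26% of all genes tested that rose and 2.34% that fell. Of the B cell list 11 of 12 genes were on both array types and 5 passed the filter, with 0 called by limma (2 at an unadjusted p under 0.05) and a median log2 ratio of 0.31. Their summed scaled signal was 1362 and 809 in wild type and 1512 and 984 in Icsbp-deficient GMP on 430A and MOE430_2. The leading member Cd79b, a chain of the B cell receptor complex, was at 415 and 567, and 426 and 493. Pax5, which defines the B lineage, lay between 20.9 and 55.2 on the 4 arrays, under the filter level. Of the 11 genes 6 were under the filter and not tested. Blk, a B lineage kinase, was lower on both array types at -0.33 and -0.6 and did not pass (limma adjusted p = 0.325). Igll1, at 0.85 and 0.57, and Vpreb1, at 0.35 and 0.94, were higher on both and did not pass either (limma adjusted p = 0.0969 and 0.189).

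Of the dendritic cell list 8 of 10 genes were on both array types and 2 passed the filter, Bst2 at -0.3 and the receptor Flt3 at -0.05, neither of them called (0 at an unadjusted p under 0.05). The list's summed signal was 892 and 560 in wild type and 852 and 485 in Icsbp-deficient GMP. Of 6 tested monocyte and macrophage markers 2 rose and 0 fell, and the growth factor receptor Csf1r was nearly level at 2720 and 2761, and 4258 and 4195. Ccr2, the chemokine receptor, read 821 and 2278, and 1283 and 3580 (2.69-fold higher, adjusted p = 0.000261). Cd68 also rose (2.04-fold, limma adjusted p = 0.00402). Cx3cr1 was lower on both array types, at -0.34 and -0.16, and did not pass (limma adjusted p = 0.5). Adgre1, at 0.22 and 1.26, and Mrc1, at 0.35 and 0.74, were higher on both and did not pass either.

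Further marker lists, chosen with earlier results of these data known, differed by genotype. All 8 tested basophil, mast cell and eosinophil genes fell, and Prg2 and Cpa3, named above for their depth, are among them. Hdc, the histamine-forming enzyme, was 2-fold lower (limma adjusted p = 0.00364) and the protease Mcpt8 1.82-fold lower (adjusted p = 0.0154). The summed signal of the list was 6265 and 8916 in wild type against 2184 and 2200 in Icsbp-deficient GMP. Of 10 tested markers of mature neutrophils 8 rose and 0 fell, S100a8 (1.94-fold, adjusted p = 0.000408) and S100a9 (2.97-fold, adjusted p = 4.05e-05) among them. Mmp9, at 0.23 and 0.35, and Cxcr2, at -0.13 and 0.66, did not pass (limma adjusted p = 0.556 and 0.628). The summed signal of the list went from 10844 and 20063 to 29473 and 55557. S100a8 and S100a9 made up most of it, at 5527 and 2910 in wild type GMP on 430A and 12106 and 5928 on MOE430_2. The part of these lists in the fall of Ly86, or in the rises of Itgam and Itgb2, was not tested. Of the GMP list 3 of 11 rose, Fcgr3, the transcription factor Cebpa at 0.69 ± 0.12 (adjusted p = 0.0117) and the growth factor receptor chain Csf2ra at 0.55 ± 0.13 (adjusted p = 0.043), and 1 fell, Cd34. In settings applied to the marker lists after the data were seen, limma called 0 markers of any list without the block for array type and 0 with the deposited values unscaled. At an unadjusted p under 0.05 these settings gave 6 and 0 neutrophil markers, 7 and 4 basophil, mast cell and eosinophil markers, 2 and 0 monocyte markers and 2 and 0 GMP markers. With the block, the 8 basophil, mast cell and eosinophil falls became 5 without the filter, 6 without the intensity trend and 7 with an offset of 16 or a floor of 50. The 8 neutrophil rises became 7, 6, 7 and 8 in these settings. Leaving out 1 array in turn, also without the block, left 3 to 5 neutrophil rises, 3 to 4 falls in the basophil, mast cell and eosinophil list, and 0 to 1 monocyte rises.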

How the data were processed

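The deposited values are signal intensities per probe set on a linear scale, 2 arrays in each of 2 tables. The submitters' processing notes name GCOS for the MOE430_2 arrays; its version, settings and scaling target are not given in the sources used. As deposited by the authors, the 2% trimmed mean of intensity was 498.48 (wild type) and 167.13 (Icsbp-deficient) on 430A, and 160.44 and 158.61 on MOE430_2. Per the labels' protocols, an ENZO kit was used for the Icsbp-deficient 430A sample and a one-cycle kit for both MOE430_2 samples; for the wild type 430A sample none is stated, so kit and genotype cannot be told apart on that type.

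Control probe sets (64) were left out, and the 22626 shared probe sets were scaled to a trimmed mean of 500. An offset of 50 was added, log2 taken, and the 2 arrays of a type quantile normalized. The 9050 probe sets below the 40th percentile of mean signal were not tested. For probe sets on MOE430_2 alone, all its probe sets were normalized together. The fit used limma 3.58.1 in R 4.3.3 (block for array type; moderated with an intensity trend; two-sided; Benjamini-Hochberg adjustment over 13576 probe sets). It leaves 1 residual degree of freedom per probe set, with 8.89 prior degrees of freedom. A run on simulated arrays gave every probe set the same noise level, so it does not check the calls made here. The number of arrays limits the precision.

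Symbols come from the platform annotation, updated through RefSeq; 20380 of the shared probe sets had 1 symbol, 691 had several and 1555 none. The brightest tested probe set stands for a gene. The members, gene lists and tests were chosen with earlier results of these data known. Text names every probe set of the 5 genes; pathway genes that passed, or the 2 brightest of a list with none; the 5 nearest genes; the 2 brightest markers of a list; and Irf8. Further names were chosen after their values were seen. Replicate numbers do not pair the preparations. Preparations are separate pools. The p-values rest on 1 residual degree of freedom per probe set and 8.89 borrowed from the other probe sets. They therefore measure a gene's own spread between preparations only in small part.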

Additional observations from a re-analysis of the deposited data

How the results depend on the processing

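The mean log2 ratio of Ly86 was -4.22 for the deposited values without scaling and -5.89 with an offset of 16, and each array type alone gave -5.01 and -4.57. With the values as deposited the median of all genes was -0.67, since the 430A arrays were on different scales, and there Cd180 was at -0.64, Ly96 at -0.38, the Tlr4 probe sets at -0.44 and -0.38 and Cd14 at -0.82. Relative to that median these were -3.55 for Ly86, 0.03 for Cd180, 0.29 for Ly96, 0.23 and 0.28 for Tlr4 and -0.15 for Cd14. With a floor Ly96 was at 0.17. Over each array type alone, without the other, Cd180 ranged from -0.48 to 0.24, Ly96 from 0.09 to 0.15, Tlr4 from -0.22 to 0.48 and from 0.07 to 0.44, and Cd14 from -0.29 to 0.05.

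The 696 probe sets called by limma became 0 with the values as deposited (28 at an unadjusted p under 0.05), 266 without the filter, 267 without the intensity trend and 1 without the block for array type. The 6 pathway genes called became 0 with the values as deposited (0 at an unadjusted p under 0.05), where Nfkbia was at -0.1, 3 with an offset of 16, 1 without the filter, 3 with the 60th percentile filter, 2 without the intensity trend and 0 without the block. Scaling alone, cyclic loess and a floor kept the same 6 genes. Leaving out each array in turn, which drops the block and assumes that the lone array varies like the other group, gave 37 to 55 probe sets and 0 pathway genes in all 4 cases, with 1 to 2 at an unadjusted p under 0.05. Signals near the offset, Ly86 in Icsbp-deficient GMP above all, limit the size of a ratio.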
